A study of Mus musculus with 18 samples.

Results

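The IFIT family (interferon-induced proteins with tetratricopeptide repeats) was represented by 6 genes, Ifit1, Ifit2, Ifit3, Ifit3b, Ifit1bl1 and Ifit1bl2, out of the 21734 genes of the deposited count table. The members were the rows bearing those names. Counts came from rRNA-depleted, strand-specific RNA-seq of mouse bone marrow-derived macrophages (BMDMs), which are marrow cells grown into macrophages with M-CSF for 8 to 9 days. The 18 libraries fell into 6 groups of 3, from 3 mice per genotype, all of a mixed 129/B6 background and 6 to 7 months old. WT cells carried the normal Mir146a gene, KO cells lacked miR-146a, and 3′F cells carried a Mir146a allele in which part of the 3′ region was exchanged with the opposite arm of the hairpin while the seed was kept. KO and 3′F are germline alleles. Each genotype was measured resting, after a change of medium alone, and after 16 h in fresh medium with 1 ng/ml LPS, the cell wall lipid of Gram-negative bacteria that engages TLR4. The 3 resting and 3 LPS cultures of a genotype carry the numbers 1 to 3 and came from the same 3 mice. Equal numbers also carry the same letter, A to C, in the column names of the counts. The labels do not state that a number or letter marks 1 mouse. The main tests are therefore unpaired, and their p-values measure the spread between these samples.

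IFIT proteins are cytoplasmic effectors of the interferon response. Ifit1 binds viral RNA whose 5′ cap lacks 2′-O-methylation and keeps it from being translated. Among the human proteins, IFIT2 and IFIT3 form complexes with IFIT1, and IFIT3 stabilises IFIT1. Ifit3b is a near-identical copy of Ifit3, and Ifit1bl1 and Ifit1bl2 are Ifit1-like paralogues. In macrophages LPS acts through TLR4 and IRF3 to make interferon-β, which signals back through its receptor, and many of the genes it induces carry the interferon-stimulated response element (ISRE) in their promoters. miR-146a is known as a brake on TLR signalling through Irak1 and Traf6.

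All 6 members lie within 1 cluster on chromosome 19 (GRCm38, Gencode M21). From one end to the other they are Ifit2 (chr19:34550694-34576419, plus strand), Ifit3 (chr19:34583531-34588731, plus), Ifit1bl1 (chr19:34592891-34601956, minus), Ifit3b (chr19:34607970-34613401, plus), Ifit1bl2 (chr19:34617049-34640743, minus) and Ifit1 (chr19:34640871-34650009, plus). The longest-coding transcript of each has 2 or 3 exons. The coding sequences of Ifit3 and Ifit3b were identical at 1198 of 1209 bases (99.1%), those of Ifit1bl1 and Ifit1bl2 at 88.2% of aligned bases, and the other pairs at 62.6% to 78.6%. Of all 50-base stretches of Ifit3 transcripts, 51.2% also occurred in Ifit3b, and 45% of those of Ifit3b occurred in another gene. Reads from these shared stretches cannot be assigned to 1 of the pair, so the split between Ifit3 and Ifit3b is uncertain. The corresponding share was 0 for Ifit2 and 6.45% to 9.34% for the Ifit1-like genes.

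The promoters are shown because all 6 genes moved together with LPS. The RefSeq promoter table (GRCm38.p6) held an entry for 6 of 6 members, and the entry nearest to the Gencode start was used. The ISRE core GAAANNGAAA was searched on both strands from 250 bases before to 50 bases after the start site. It was present in 3.44% of 32851 such promoters and in 5 of 6 members. Its longer form GAAANNGAAACT, which contains the core, was present in 0.271% of promoters and in 4 of 6 members. Capitals mark the core, read here on the reverse strand as TTTCNNTTTC, in the sequence upstream of each start, written 5′ to 3′ in the direction of the gene.
Ifit1, plus strand, chr19:34640744-34640888, the 145 bases between the divergent starts of Ifit1 and Ifit1bl2: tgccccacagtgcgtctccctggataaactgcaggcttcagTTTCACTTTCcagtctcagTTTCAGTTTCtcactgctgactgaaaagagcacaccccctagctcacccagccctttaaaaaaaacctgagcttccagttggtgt
Ifit3, plus strand, chr19:34583329-34583528: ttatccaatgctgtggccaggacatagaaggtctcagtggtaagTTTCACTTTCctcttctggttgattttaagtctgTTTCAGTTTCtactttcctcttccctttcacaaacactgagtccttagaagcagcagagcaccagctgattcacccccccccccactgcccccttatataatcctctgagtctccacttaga
Ifit3b, plus strand, chr19:34607757-34607956: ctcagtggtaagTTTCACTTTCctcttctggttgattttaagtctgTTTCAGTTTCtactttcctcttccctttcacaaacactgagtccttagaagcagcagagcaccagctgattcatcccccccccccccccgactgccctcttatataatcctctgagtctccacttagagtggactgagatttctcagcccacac
Ifit1bl1, minus strand, chr19:34601969-34602168: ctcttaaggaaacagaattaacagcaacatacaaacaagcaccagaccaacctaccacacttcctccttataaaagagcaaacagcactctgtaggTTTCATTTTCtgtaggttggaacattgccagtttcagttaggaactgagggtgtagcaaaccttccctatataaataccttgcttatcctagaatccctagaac
Ifit2, plus strand, chr19:34550494-34550693: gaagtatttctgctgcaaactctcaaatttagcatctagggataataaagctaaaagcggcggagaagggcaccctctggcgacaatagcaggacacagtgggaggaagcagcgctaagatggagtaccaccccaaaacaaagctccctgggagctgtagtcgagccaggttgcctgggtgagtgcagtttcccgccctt
Ifit1 and Ifit1bl2 start on opposite strands on either side of these 145 bases, so both cores of the Ifit1 sequence are also the 2 cores of Ifit1bl2. Ifit3 and Ifit3b each had 2 cores in the same arrangement, and their promoter windows were identical at 258 of 260 aligned bases (99.2%). Ifit1bl1 had 1 core, which was not of the longer form. No core was in the Ifit2 window, which says only that these letters do not occur there. Ifit2, Ifit1bl1 and Ifit1bl2 each had 2 promoter entries, of which only the nearest entered the member counts. The counts of 5 of 6 and 4 of 6 therefore rest on that choice of start.

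The mature miRNA removed in KO cells is shown with its seed, bases 2 to 8, in capitals, because the members' transcripts could be searched for it.
mmu-miR-146a-5p: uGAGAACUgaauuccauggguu
The 7-base seed match AGTTCTC occurred in the 3′ UTR of 1 of 6 members, Ifit2, and in that of 10.0% of the 20379 genes with a 3′ UTR. In coding sequence it occurred in 6 of 6 members, against 12.3% of 21546 genes of all lengths. The following coding matches are printed in capitals, with 15 bases before and 2 after, to show that 5 members share 1 site at a similar position.
Ifit1, coding bases 633 to 639: agatccataccttaaAGTTCTCct
Ifit1bl1, coding bases 654 to 660: agatccataccttaaAGTTCTCct
Ifit1bl2, coding bases 654 to 660: agatccataccttaaAGTTCTCct
Ifit3, coding bases 630 to 636: gaaccagtacctgaaAGTTCTCct
Ifit3b, coding bases 630 to 636: gaaccagtacgtgaaAGTTCTCct
The members are homologous, so these matches are not independent of each other. A match is a description of the letters and does not show that the miRNA binds.

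Total counts ranged from 4071084 in resting 3′F replicate 3 to 19818043, and levels are given as CPM, a count divided by the library total and set to a common depth, scaled by the trimmed mean of M-values. Mir146a itself is not a protein-coding gene, so its loss could not be checked in this table. All 8 macrophage markers were detected in every group, with a summed level of 31772 to 87900 CPM per library, while the T and NK cell list summed to at most 1.17 CPM, the B cell list to at most 0.869 CPM and the neutrophil list to at most 10.2 CPM. The plasmacytoid dendritic cell list, which shares the interferon-stimulated gene Bst2 with the effector list used here, summed to 323 to 349 CPM in resting WT, 342 to 360 CPM in resting 3′F and 419 to 820 CPM in resting KO. It summed to 420 to 752 CPM in LPS-treated WT, 580 to 640 CPM in LPS-treated 3′F and 757 to 915 CPM in LPS-treated KO. Nearly all of that list's sum was Bst2, Irf8 and Tcf4. Per library, Siglech was at most 0.702 CPM, Ccr9 at most 2.97 CPM and Klk1 at most 0.0733 CPM. The part of this list in the results was not tested. Resting KO replicate 3 stood apart from its group. On the first principal component of all tested genes it lay at -19.7, against 28.2 and 31.5 for the other resting KO libraries, 51.9 to 62.4 for the resting WT and 3′F libraries, and -70.6 to -17.4 for the LPS libraries. Resting 3′F replicate 3, the shallowest library, also stood apart, at -50.3 on the second component against 4.50 and 5.32 for the other resting 3′F libraries. Without it edgeR called the same number of members in each comparison that uses resting 3′F. The macrophage list summed to 31772 to 47835 CPM in resting WT, 42652 to 62329 CPM in resting 3′F and 60518 to 62440 CPM in resting KO, and its part in the results was not tested. Most of that sum was Lyz2, at 26461 to 42604 CPM in resting WT and 53039 to 55434 CPM in resting KO. Itgam of the same list went the other way, at 238 to 249 CPM in resting WT and 130 to 166 CPM in resting KO. In such bulk samples fewer cells expressing a gene and less RNA per cell cannot be told apart. Member results that use resting KO are given also without its replicate 3. All 6 members passed the filter on low counts that left 11357 genes for testing. Ifit1bl2 passed it through its LPS libraries. In fits of resting KO with resting WT or 3′F alone it was not kept. Its LPS calls are therefore not independent of the filter.

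In resting WT macrophages the family was expressed at a low level and LPS raised all of it. Ifit1, the cap sensor, measured 4.80, 4.89 and 18.1 CPM at rest and 714, 310 and 1549 CPM after LPS. Ifit2 measured 25.3, 21.8 and 51.8 CPM at rest and 2235, 876 and 6351 CPM after LPS. Ifit3 measured 5.52, 4.59 and 15.4 CPM at rest and 433, 180 and 961 CPM after LPS. For these 3 genes the lowest LPS library was above the highest resting library, and WT replicate 3 was the highest in both states. Ifit3b went from 0.657, 1.13 and 3.67 CPM to 44.1, 21.7 and 114 CPM. Ifit1bl1 went from 1.18, 0.678 and 2.42 CPM to 56.6, 24.2 and 284 CPM. Ifit1bl2, the least abundant member, had 3, 0 and 2 reads at rest and 59, 45 and 68 reads after LPS. Taken over the summed reads, 172 against 5, that is a 31.4-fold ratio with an exact 95% interval of 13.2 to 97.8, which covers counting error only.

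**Figure D1:**
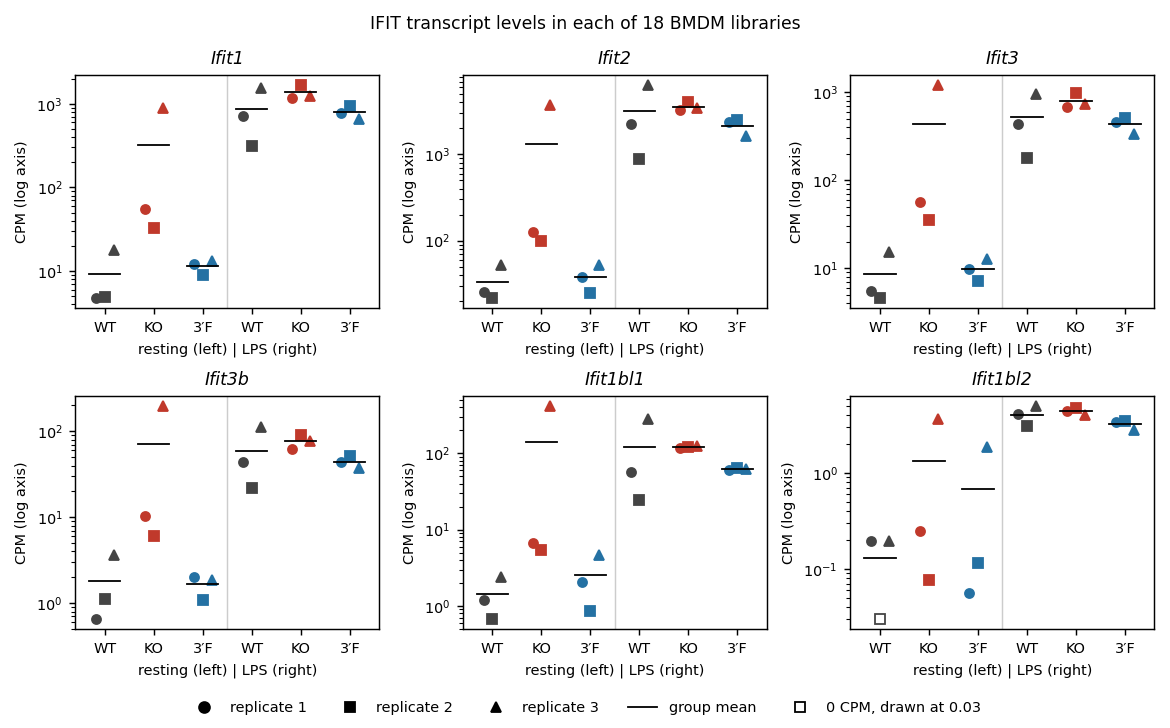
CPM of each IFIT gene (log axis) in the 18 libraries, with WT, KO and 3′F at rest on the left of each panel and after LPS on the right; symbols are replicates 1 to 3 bars are group means, and the open square is a library at 0 CPM drawn at the foot of its panel. Resting KO replicate 3 (red triangle, left side) lies far above the other resting libraries in the panels of Ifit1 to Ifit1bl1, at 883 CPM for Ifit1 against 55.5 and 32.8 CPM in the other resting KO libraries.

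With edgeR's quasi-likelihood test and Benjamini-Hochberg adjustment over all tested genes, 6 of 6 members were higher after LPS in WT, beside 16.3% of all genes tested. Among these, Ifit1bl2 had passed the filter through its LPS libraries. The log2 fold changes were 6.56 ± 1.11 (SE) for Ifit1, 6.59 ± 1.22 for Ifit2, 5.97 ± 1.14 for Ifit3, 5.14 ± 1.16 for Ifit3b, 6.47 ± 1.53 for Ifit1bl1 and 4.88 ± 1.12 for Ifit1bl2, with adjusted p between 0.000406 and 0.0050 in edgeR. Their median was 6.22, and the median over all tested genes was 0.016. Every LPS library was above every resting library for 6 of 6 members, as for 25.9% of all tested genes.

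The LPS response of 3′F macrophages covered the same 6 genes, from low resting levels. Ifit1 was at 12.1, 8.87 and 13.3 CPM in resting 3′F and at 775, 936 and 650 CPM after LPS. Ifit2 was at 37.5, 24.7 and 52.2 CPM and then at 2345, 2504 and 1615 CPM. Ifit3 was at 9.76, 7.19 and 12.6 CPM and then at 459, 506 and 330 CPM. The groups did not overlap for any member. Ifit1bl1 reached 61, 63.3 and 61.3 CPM after LPS, a much narrower spread than the 24.2 to 284 CPM of WT. In edgeR 6 of 6 members were called higher, beside 17.2% of all genes, with log2 fold changes from 3.29 ± 1.04 for Ifit1bl2 to 6.13 ± 1.10 for Ifit1 and adjusted p from 0.000589 to 0.0246. Every LPS library was above every resting one for 6 of 6 members and 25.1% of all tested genes. Ifit1bl2 had 1, 2 and 8 reads in resting 3′F, and it was the one member not called by DESeq2 (adjusted p = 0.09622). It had also passed the filter through its LPS libraries. With 1 library of these groups left out, edgeR called 4 to 6 members.

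Resting 3′F and resting WT overlapped for every member. The log2 differences ran from -0.06 for Ifit3b to 1.29 for Ifit1bl2. With edgeR 0 of 6 members were called, 0 of 6 had an unadjusted p under the threshold of 0.05, and DESeq2 called 0. Over all genes edgeR called 0 (0% of those tested), with 557 at an unadjusted p under 0.05 and 2 called by DESeq2. After LPS the 3′F and WT libraries again overlapped for all 6 members, with log2 differences of -0.97 to -0.12. Again 0 of 6 members were called by edgeR or DESeq2 and 0 had an unadjusted p under 0.05, beside 0.00881% of all genes. The SE of the member differences was 0.96 to 1.83 on the log2 scale at rest and 0.73 to 1.11 after LPS, so differences of a few fold were not detectable with this spread.

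Resting KO macrophages had the highest resting levels of 5 members, and 1 library carried most of the difference. Ifit1 measured 55.5, 32.8 and 883 CPM in resting KO, against at most 18.1 CPM in resting WT. Ifit2 measured 127, 98.2 and 3716 CPM, against at most 51.8 CPM in WT. Ifit3 measured 55.8, 35.3 and 1198 CPM, against at most 15.4 CPM in WT. For each of these genes all 3 KO libraries lay above all resting WT and 3′F libraries, and replicate 3 was 15.9 times the next highest KO library for Ifit1, 29.2 times for Ifit2 and 21.5 times for Ifit3. Ifit3b measured 10.3, 6.04 and 196 CPM. Ifit1bl1 measured 6.74, 5.43 and 412 CPM. Ifit1bl2 had 4, 1 and 33 reads, so its first 2 KO libraries overlapped with WT.

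In edgeR 5 of 6 members passed as higher in KO against WT at rest, beside 5.12% of all genes tested. The log2 fold changes were 5.15 ± 1.05 for Ifit1, 5.32 ± 1.15 for Ifit2, 5.68 ± 1.12 for Ifit3, 5.36 ± 1.16 for Ifit3b and 6.68 ± 1.54 for Ifit1bl1, with adjusted p from 0.00584 to 0.0130. Ifit1bl2 was not called (3.08 ± 1.29, adjusted p = 0.158). Every KO library was above every WT library for 5 of 6 members, as for 13.7% of all tested genes. Without KO replicate 3, the calls fell to 2 of 6, Ifit1 at 2.30 ± 0.57 (adjusted p = 0.0232) and Ifit3 at 2.46 ± 0.56 (adjusted p = 0.0151), beside 3.61% of all genes. The values were then 1.78 ± 0.56 for Ifit2, 2.29 ± 0.68 for Ifit3b and 2.16 ± 0.95 for Ifit1bl1, with edgeR adjusted p of 0.0667, 0.0524 and 0.198. These fits take their spread from all 6 groups. When only the resting KO and WT libraries were fitted, 0 of the 5 members tested passed, with adjusted p of 0.0964 to 0.120 in edgeR, beside 1.14% of all genes called higher in that fit. Leaving out resting WT replicate 1 or 2 reduced the calls to 3 and 2 of 6.

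Against resting 3′F the same 5 members were higher in KO, with log2 fold changes of 4.84 ± 1.04 for Ifit1 to 6.14 ± 1.52 for Ifit1bl1 and edgeR adjusted p of 0.00809 to 0.0178. This stands beside 6.79% of all genes, and the non-overlap of 5 of 6 members beside 15.8%. Ifit1bl2 was again not called (1.79 ± 1.15, adjusted p = 0.298). Without KO replicate 3 the calls were Ifit1, Ifit3 and Ifit3b, 3 of 6, beside 4.4% of all genes, and Ifit1bl2 changed sign to -0.88. With only these 2 groups in the fit, 0 of the 5 members tested passed in edgeR (adjusted p 0.161 to 0.208), beside 0.101% of all genes called higher. The comparisons of KO with WT and with 3′F share the KO libraries and are not independent.

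**Figure D2:**
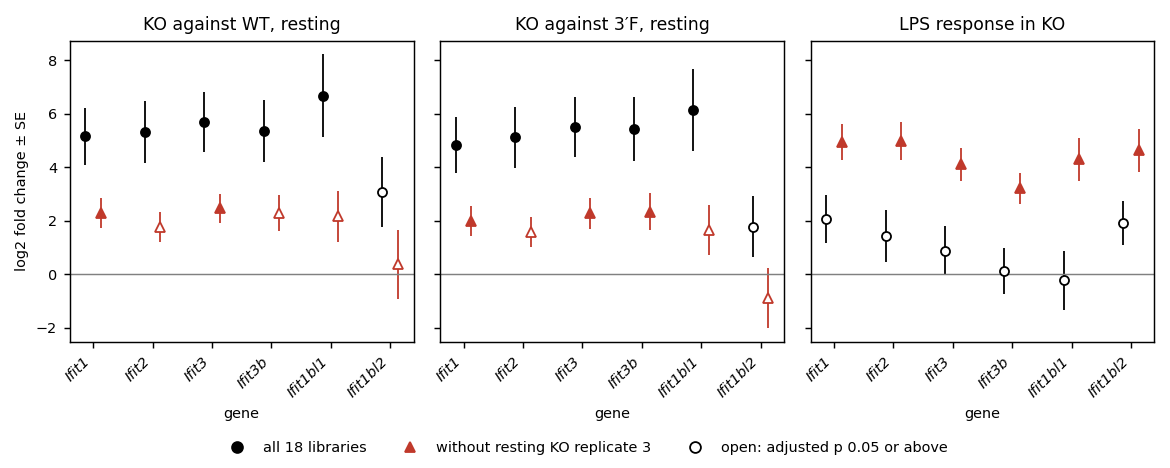
Log2 fold change ± SE of each IFIT gene in 3 comparisons that use resting KO, from all 18 libraries (black circles) and without resting KO replicate 3 (red triangles); open symbols have an adjusted p of 0.05 or above. Without that library the resting differences fall, for example from 5.15 to 2.30 for Ifit1 against WT, and the LPS response in KO rises from 2.08 to 4.94 for Ifit1.

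After LPS the KO macrophages reached levels close to or above those of the other genotypes. Ifit1 was at 1180, 1668 and 1241 CPM, Ifit2 at 3241, 4041 and 3463 CPM, and Ifit3 at 676, 970 and 735 CPM. The highest of these libraries was 1.41, 1.25 and 1.43 times the lowest for Ifit1, Ifit2 and Ifit3. For Ifit2 and Ifit3 the same ratio was 7.25 and 5.33 among the LPS-treated WT libraries. Ifit1bl1 was the tightest, at 118, 119 and 124 CPM. With the resting KO libraries as reference, edgeR called 0 of 6 members for LPS in KO, beside 14.3% of all genes called higher. Of the 6, 2 had an unadjusted p under 0.05 and DESeq2 called 0. The log2 fold changes were 2.08 ± 0.89 for Ifit1, 1.45 ± 0.97 for Ifit2, 0.89 ± 0.91 for Ifit3, 0.14 ± 0.86 for Ifit3b, -0.23 ± 1.09 for Ifit1bl1 and 1.93 ± 0.82 for Ifit1bl2, with adjusted p of 0.0944 to 0.927. Every LPS library was above every resting one for 2 of 6 members, Ifit1 and Ifit1bl2, as for 23.8% of all tested genes.

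This result turned on resting KO replicate 3. Without it, 6 of 6 members were higher after LPS in KO, beside 20.2% of all genes, with log2 fold changes from 3.22 ± 0.58 for Ifit3b to 4.99 ± 0.70 for Ifit2 and edgeR adjusted p of 2.77e-05 to 0.000643. Between same-numbered KO libraries, LPS over resting was 21.3-fold and 50.8-fold for Ifit1 at numbers 1 and 2 but 1.41-fold at number 3. For Ifit3b it was 6.03-fold and 14.9-fold at numbers 1 and 2, and 0.399 at number 3. For Ifit1bl1 it was 17.5-fold, 21.9-fold and 0.300. In WT and 3′F the same ratio of Ifit1 was 48.7-fold to 149-fold at every number.

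The genotype effect on the LPS response itself was tested as an interaction. For KO against WT, edgeR called 0 of 6 members, 5 had an unadjusted p under 0.05, and DESeq2 called 3 (Ifit2, Ifit3 and Ifit1bl1, adjusted p = 0.04768 each). Over all genes 560 had an unadjusted p under 0.05 in edgeR and DESeq2 called 23. The log2 differences of the response were -6.69 to -2.95 in edgeR, with adjusted p of 0.507 to 1.00, beside 0.00881% of all genes called. Without resting KO replicate 3 they were -2.18 to -0.25, with 0 of 6 called. For 3′F against WT the differences were -1.59 to -0.36, with 0 of 6 called by either tool and 0 at an unadjusted p under 0.05. In edgeR 0% of all genes were called in that interaction, with 203 at an unadjusted p under 0.05 and 0 called by DESeq2.

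**Figure D3:**
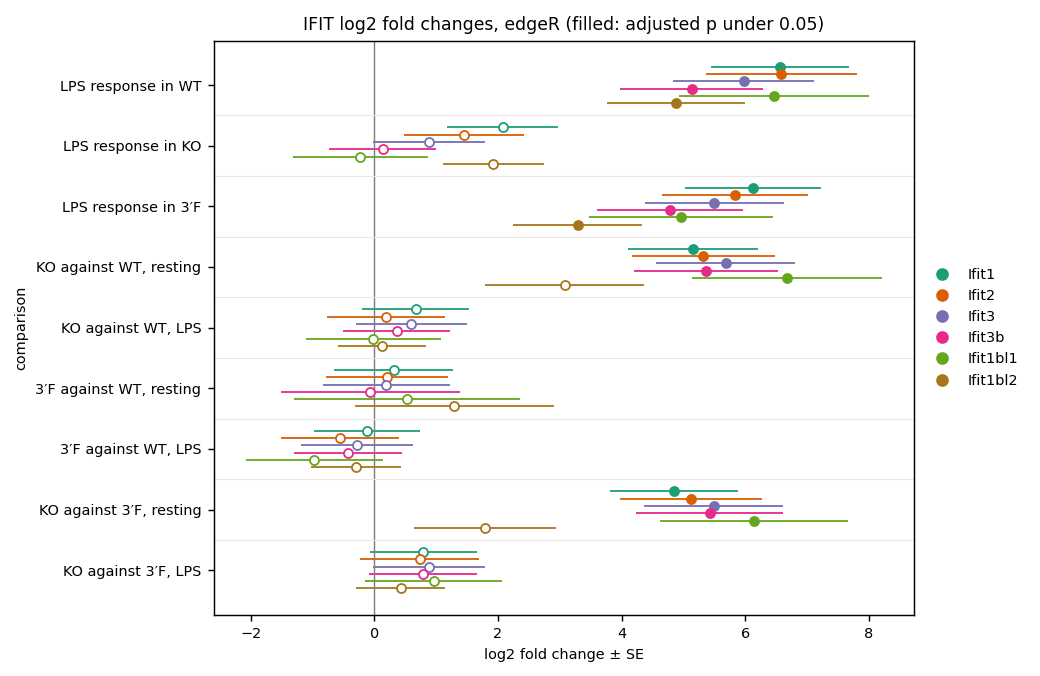
Log2 fold change ± SE of each IFIT gene (colours) in the 9 pairwise comparisons, from edgeR with all 18 libraries; filled points have an adjusted p under 0.05. Points are filled for 6 of 6 genes in the LPS responses of WT and 3′F and for 5 of 6 in resting KO against WT and against 3′F.

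Among LPS-treated cells, KO and WT overlapped for all 6 members. The log2 differences were -0.02 to 0.67, and 0 of 6 members were called by edgeR or DESeq2 or had an unadjusted p under 0.05, beside 1.89% of all genes called higher. KO and 3′F did not overlap. In 6 of 6 members every LPS-treated KO library lay above every LPS-treated 3′F library, as it did for 19.4% of all tested genes. The log2 differences were 0.79 ± 0.86 for Ifit1, 0.73 ± 0.96 for Ifit2, 0.88 ± 0.91 for Ifit3, 0.78 ± 0.87 for Ifit3b, 0.96 ± 1.11 for Ifit1bl1 and 0.43 ± 0.72 for Ifit1bl2. In the fit of all 18 libraries edgeR called 0 of 6 (adjusted p 0.712 to 0.845), 0 had an unadjusted p under 0.05 and DESeq2 called 0, beside 1.51% of all genes called higher. When only these 2 groups were fitted, so that their own narrow spread was used, 5 of 6 members were called, with adjusted p from 3.78e-05 for Ifit1bl1 to 0.0132 for Ifit2. In that fit 7.61% of all genes were called higher, and Ifit1bl2 was not called (adjusted p = 0.233).

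The order of the members by level per kb of transcript differed between states. Ifit2 was the most abundant member per kb in 18 of 18 libraries and Ifit1bl2 the least abundant in 18 of 18. In 9 of 9 resting libraries Ifit3 was above Ifit1, with a ratio of Ifit1 to Ifit3 of 0.484 to 0.817. In 9 of 9 LPS libraries Ifit1 was above Ifit3, with a ratio of 1.06 to 1.29. Of the 50-base stretches of Ifit3, 51.2% were shared with another gene, against 7.13% for Ifit1 and 0 for Ifit2. If shared reads were not counted, Ifit3 and Ifit3b per kb are too low, and their places in the order are uncertain. Gene length is the same in every library, so the shift of the ratio of Ifit1 to Ifit3 between states does not rest on it. Resting KO replicate 3 had a summed IFIT level of 2246 CPM per kb, inside the 466 to 2934 CPM per kb of the LPS libraries. It kept the resting order of Ifit1 and Ifit3. Its Ifit1bl1 was above its Ifit3b, an order found in 8 of 9 LPS libraries and, with this one included, 3 of 9 resting libraries.

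Ifit3b took 2.67% to 5.78% of the summed IFIT level per kb at rest and 1.78% to 2.33% after LPS. The level of Ifit3b per kb was 0.104 to 0.215 of that of Ifit3 at rest and 0.0799 to 0.105 after LPS, which overlap only at resting WT replicate 1. This ratio depends on how reads shared by the pair were treated. The paper sets a minimum mapping quality for counting, so reads that fit both genes equally may not have been counted. The levels per kb and pool shares of Ifit3 and Ifit3b would then be too low. Ifit3 took 24.2% to 34.2% of the pool at rest and 18.8% to 24.0% after LPS. Ifit1bl1 took 8.07% of the pool in resting KO replicate 3, 7.07% in resting 3′F replicate 3, 2.60% to 4.22% in the other resting libraries and 2.09% to 4.26% after LPS. Ifit1 and Ifit1bl2, which share a divergent promoter, differed widely in level, at 323 against 1.21 CPM per kb in LPS-treated WT. These shares were examined after the values had been seen and are given without a test.

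**Figure D4:**
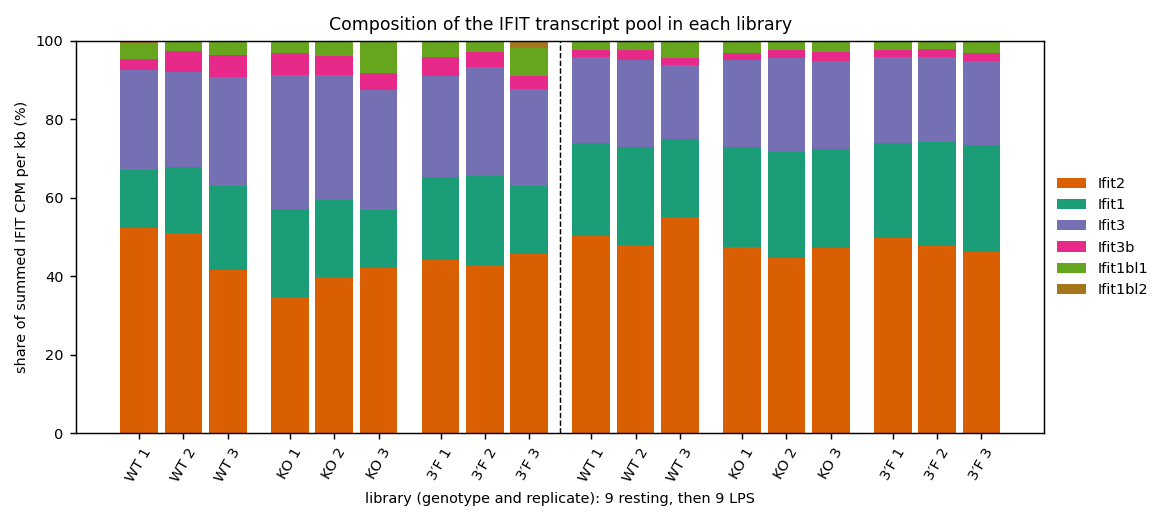
Share of each IFIT gene in the summed IFIT level (CPM per kb, stacked to 100%) in each of 18 libraries, 9 resting to the left of the dashed line and 9 LPS-treated to the right. Ifit3 (purple) is larger than Ifit1 (blue-green) in 9 of 9 resting libraries and smaller in 9 of 9 LPS libraries. Shares of Ifit3 and Ifit3b would be too low if reads shared with another gene were not counted.

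Across the 18 libraries the members followed each other closely. Pearson's r of log2 CPM was 0.970 to 0.995 among Ifit1, Ifit2, Ifit3, Ifit3b and Ifit1bl1, and 0.867 to 0.923 between Ifit1bl2 and the others, whose low counts limit it. The 8 genes outside the family whose log2 CPM was most like the mean of the members over the same 18 libraries were Mx1 (r = 0.997), Oas1a, Isg15, Usp18, Ifi211, Rsad2, H2-T24 and Cmpk2 (r = 0.993). These libraries fall into resting and LPS groups, which all the genes share.

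The interferon ligands were nearly absent from the libraries. Of 10 ligand genes 1 passed the filter, Ifnb1, which encodes interferon-β. Like Ifit1bl2, this gene passed through its LPS libraries, so its LPS calls are not independent of the filter. It had 0 reads in each of the 3 resting WT libraries and 10, 5 and 11 reads after LPS. In resting KO it had 0, 2 and 6 reads, the 6 in replicate 3, and in LPS-treated KO 24, 30 and 13. In 3′F it had 1, 0 and 2 reads at rest and 10, 1 and 3 after LPS. It was called higher after LPS in WT (adjusted p = 0.0212) and in KO (adjusted p = 0.0340) in edgeR, and not in 3′F. DESeq2 called it after LPS in WT but not in KO or 3′F. It was not called in KO against WT at rest (edgeR adjusted p = 0.214).

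The list counts below stand beside the shares of all tested genes called higher. These were 16.3% for LPS in WT, 14.3% in KO, 17.2% in 3′F and 5.12% for resting KO against WT. Without resting KO replicate 3 they were 20.2% for LPS in KO and 3.61% for resting KO against WT. Of the receptors and Janus kinases, 5 of 7 were higher after LPS in WT, 4 of 7 in KO and 5 of 7 in 3′F. Examples in WT were Jak2 at a log2 fold change of 1.60 ± 0.20 and Ifngr2 at 0.90 ± 0.12. At rest, in KO against WT, 0 of 7 were called by edgeR, 4 had an unadjusted p under 0.05 and DESeq2 called 1. Over all genes 2671 had an unadjusted p under 0.05 in edgeR in that comparison. Ifnar1, a chain of the interferon-α/β receptor, was at 0.46 ± 0.16 (edgeR adjusted p = 0.0782). Without resting KO replicate 3 it was the 1 of 7 called, at 0.61 ± 0.15 (edgeR adjusted p = 0.0188), and 5 of 7 were higher after LPS in KO.

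Of the feedback inhibitors, 3 of 3 were higher after LPS in WT and 3′F and 2 of 3 in KO, Socs1 and Socs3. In resting KO against WT, Usp18, which restrains signalling at the interferon receptor, was the one called (4.65 ± 0.90). Usp18 measured 23.1, 15.9 and 298 CPM in resting KO, and without replicate 3 its difference was 2.15 ± 0.43. Without that library 2 of 3 inhibitors were called in resting KO, Usp18 and Socs3 (1.22 ± 0.31), and 3 of 3 were higher after LPS in KO. Of the RNA sensors and adaptors, 6 of 8 were higher after LPS in WT and 5 of 8 in resting KO against WT, with Zbp1 at 5.54 ± 1.16, the RIG-I gene Ddx58 at 2.71 ± 0.59, Dhx58 at 2.60 ± 0.60 and the PKR gene Eif2ak2 at 1.48 ± 0.37. Without resting KO replicate 3 the calls were 2 of 8, Zbp1 at 2.33 ± 0.52 and Ddx58 at 1.09 ± 0.28. The STING gene Tmem173, named after its values were seen, fell by 0.63 ± 0.23 on the log2 scale with LPS in WT (edgeR adjusted p = 0.0474). In KO, 2 of 8 sensors were higher after LPS, and 6 of 8 without resting KO replicate 3.

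Of the other antiviral effectors, 14 of 14 were higher after LPS in WT, 13 of 14 in 3′F and 2 of 14 in KO, Mx2 and Xaf1. In resting KO against WT 13 of 14 were higher, with a median log2 fold change of 4.08 over the list against 0.0169 over all tested genes. Examples were Mx2, a dynamin-like GTPase, at 4.29 ± 0.87, Oasl2 at 3.86 ± 0.72, Oas2, a 2′-5′-oligoadenylate synthetase, at 3.38 ± 0.57, and Xaf1 at 3.01 ± 0.55. Without resting KO replicate 3, 7 of 14 were higher in resting KO than in WT, and 13 of 14 were higher after LPS in KO.

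The cap methyltransferases methylate the cap, which includes the 2′-O-methylation that RNA bound by Ifit1 lacks. The eIF3 subunits form the initiation factor that IFIT proteins bind. Calls on this list went in both directions. After LPS 2 of 7 were higher in WT, Cmtr1, a cap 2′-O-methyltransferase, at 1.58 ± 0.28 and Rnmt at 0.62 ± 0.11. In 3′F 3 of 7 were higher after LPS and 2 were lower. In KO 2 of 7 were higher after LPS, and without resting KO replicate 3 it was 3 higher and 1 lower. At rest 1 of 7 was higher in KO than in WT, Cmtr1 at 0.91 ± 0.27 (edgeR adjusted p = 0.0465), which was no longer called without resting KO replicate 3.

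Of the 8 genes that flank the cluster on chromosome 19, 7 were tested, and calls went in both directions. After LPS in WT 1 was higher, the death receptor gene Fas (2.35 ± 0.13), and 3 were lower, Stambpl1 (-0.56 ± 0.14), Pank1 (-0.96 ± 0.23) and Kif20b (-1.11 ± 0.35). In resting KO against WT, Fas (1.15 ± 0.13) and the cholesterol 25-hydroxylase gene Ch25h (3.83 ± 0.95) were higher and Kif20b, a mitotic kinesin gene, was lower (-1.93 ± 0.36). Ch25h had 13, 9 and 43 reads in resting KO and was not called without replicate 3 (2.45 ± 0.83, edgeR adjusted p = 0.0899), while Fas and Kif20b were. Fas was called higher in LPS-treated KO than in LPS-treated 3′F (0.47 ± 0.12, adjusted p = 0.0428), as was Ch25h (2.59 ± 0.70, adjusted p = 0.0489).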

How the data were processed

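The authors trimmed reads with cutadapt 1.8.3, aligned them to mm10 with HISAT2 2.1.0 and counted them per gene with featureCounts 1.5.3, tools and versions as given in the submitters' processing notes. The deposited values are raw counts per protein-coding gene for 18 libraries. The paper also gives a minimum mapping quality for this counting. Read length is not given in the sources used here. Counts were tested with edgeR 4.0.16 (R 4.3.3): filterByExpr by group, TMM scaling, and 1 quasi-likelihood model over all 6 groups, with Benjamini-Hochberg adjustment over the 11357 genes kept and a threshold of 0.05. The script was tested on simulated data. DESeq2 1.42.0, RLE scaling, no filter, fits of the compared groups only, a replicate block, and leaving out each library were alternatives. CPM per kb uses the deposited gene length. All 6 members were named in all 11 comparisons. From each pathway list, up to 4 genes with the smallest p in resting KO against WT and up to 2 in the LPS response of WT could be named, as could any chromosome 19 neighbour and the 8 genes most like the family. The members and lists were chosen with earlier results of these data known. One list of pathway genes is not reported here.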

Additional observations from a re-analysis of the deposited data

How the results depend on the processing

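RLE scaling and no filter on low counts left every count of called members as reported, and summing Ifit3 and Ifit3b left the direction and call of Ifit3 in 11 of 11 comparisons. DESeq2 called 3 members in the interaction of KO against WT, where edgeR called 0. Fits of the compared groups only called 0 members in resting KO against WT, 0 in resting KO against 3′F, and 5 in LPS-treated KO against 3′F. Leaving out 1 library moved the count of called members between 0 and 6 for LPS in KO. It moved between 4 and 6 for LPS in 3′F. For resting KO it moved between 2 and 5 against WT, and between 3 and 5 against 3′F. Fits without resting KO replicate 3 over all genes and pathway lists were chosen after seeing the data. Among single genes, leaving out 1 library changed signs of differences that were not called. For LPS in KO the range was -0.41 to 3.22 for Ifit3b and -0.79 to 4.30 for Ifit1bl1. For LPS-treated KO against WT it was -0.26 to 1.20 for Ifit2, -0.041 to 1.22 for Ifit3b, -0.50 to 1.57 for Ifit1bl1 and -0.044 to 0.30 for Ifit1bl2. For resting KO against 3′F it was -0.88 to 3.6 for Ifit1bl2. For resting 3′F against WT it was -0.014 to 1.22 for Ifit1, -0.081 to 0.68 for Ifit2, -0.11 to 0.91 for Ifit3, -0.51 to 0.87 for Ifit3b and -0.54 to 2.11 for Ifit1bl2. For LPS-treated 3′F against WT it was -0.53 to 0.62 for Ifit1, -1.0 to 0.47 for Ifit2, -0.69 to 0.49 for Ifit3, -0.82 to 0.44 for Ifit3b and -1.46 to 0.61 for Ifit1bl1. For the 3′F interaction it was -1.34 to 0.31 for Ifit1, -1.23 to 0.27 for Ifit2, -1.20 to 0.30 for Ifit3, -1.29 to 0.50 for Ifit3b, -2.04 to 0.081 for Ifit1bl1 and -2.41 to 0.23 for Ifit1bl2. Over all genes, the count called in LPS-treated KO against WT was 544 with edgeR, 983 with DESeq2 and 1031 in a fit of those groups only, and in LPS-treated KO against 3′F it was 441, 801 and 1661. In resting KO against WT 1067 genes were called, and 396 in a fit of those groups only. In resting KO against 3′F the numbers were 1464 and 16, and 918 without resting KO replicate 3. For the KO interaction the number was 1 with edgeR, 23 with DESeq2, 2 with no filter and 4 without that library.

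The labels do not state whether same-numbered libraries share a mouse. Same-numbered resting and LPS libraries of a genotype carry the same letter, A to C, in the column names. For its small RNA libraries the paper uses A and B to identify the BMDM culture replicate. The deviations of same-numbered libraries from the group means correlated at 0.028 to 0.318 between resting and LPS within a genotype. All 9 such pairs were above 0 and 5 were above 0.1, against 14 of 18 other pairs below 0. Of the 9 resting libraries, 8 correlated best with their own number. The letters and these correlations are hints at a pairing, which the labels do not state. With the replicate number as a block, 2 members (Ifit1 and Ifit2) were called for LPS in KO in place of 0, and the counts of called members in the other 10 comparisons did not change. Under the block Ifit1bl1 changed sign to 2.58 for LPS in KO and to 0.98 for LPS-treated KO against WT, and Ifit3b to 0.34 for resting 3′F against WT. For LPS-treated 3′F against WT the blocked values were 0.32 for Ifit1, 0.082 for Ifit2, 0.22 for Ifit3, 0.083 for Ifit3b and 0.045 for Ifit1bl1. The causes of these changes were not tested. Low counts limit Ifit1bl2, which had at most 8 reads in any resting library other than KO replicate 3.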
